A study of Mus musculus with 6 samples.

Results

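The respiratory chain subunits are the proteins that make up complexes I to V of the mitochondrial inner membrane. They were found in the deposited count table by symbol (Nduf, Sdh, Uqcr with Cyc1, Cox and Atp5 symbols of structural subunits, and the protein genes of mitochondrial DNA), which gave 101 of 24434 gene symbols. Of these, 49 belong to complex I, 4 to complex II, 10 to complex III, 19 to complex IV and 19 to complex V, and 88 are nuclear genes while 13 are carried by mitochondrial DNA. Assembly factors (8 Ndufaf symbols) and 1 symbol ending in -ps were left out of the set. A filter on low counts passed 99 members. The remaining pair, Ndufs6b and Cox8b, was not tested.

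The 6 libraries came from whole kidneys of mice fed normal chow. In 3 of them the genotype was db/m, the control, and in 3 it was db/db, the diabetic model of the study. The db allele disrupts the leptin receptor in every tissue of the body, so obesity, raised glucose and the lack of receptor signalling are carried together by the db/db group and cannot be told apart. The sources used here do not give sex, age or strain. The labels do not say that the libraries of a group came from separate animals, and the p-values therefore measure the spread between libraries, which may be technical.

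The chain passes electrons from NADH (complex I) and succinate (complex II) through ubiquinone to complex III, through cytochrome c to complex IV, and on to oxygen. Complexes I, III and IV pump protons, and complex V, the ATP synthase, uses the gradient to make ATP. Complexes I, III, IV and V are built from both genomes, whereas complex II is wholly nuclear. Kidney tubules, above all the proximal tubule and the thick ascending limb, are rich in mitochondria because they reabsorb solute at the expense of ATP.

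Total counts were 25937756 to 35931140 per library. Levels are given as CPM, counts scaled to a common library size with TMM factors, and a log2 fold change is above 0 where db/db was higher. A call is an adjusted p below 0.05 in the edgeR quasi-likelihood test over 16373 genes. The TMM factors did not overlap between groups (1.06 to 1.12 in db/m and 0.901 to 0.923 in db/db), so the distance of a gene from 0 depends on the scaling. With total counts only, the median of all genes moved from -0.06 to -0.32. Changes are therefore also given relative to the median gene and as ratios between members within a library, which no scaling alters. Markers of several nephron segments differed as well. The summed S3 proximal tubule markers were 191 to 413 CPM in db/m and 2834 to 3886 CPM in db/db, and 5 of 5 rose. The 3 distal convoluted tubule markers all fell, with sums of 891 to 1267 CPM and 551 to 647 CPM. Sums of the S1 and S2 markers (7013 to 9993 CPM and 9939 to 12602 CPM) and of the thick ascending limb markers (2239 to 3287 CPM and 1946 to 3859 CPM) overlapped. Single markers within them still differed: 1 of 7 S1 and S2 markers rose (Slc22a6) and 1 fell (Slc5a12), and 1 of 4 limb markers fell (Kcnj1). In db/m, Slc34a1 made up 4923 of the mean S1 and S2 sum of 8198 CPM, and Umod 2041 of the mean limb sum of 2890 CPM. Principal cell markers (761 to 1190 CPM and 399 to 584 CPM, 1 of 4 fell) and podocyte markers (261 to 313 CPM and 191 to 254 CPM, 1 of 4 fell) had lower sums in db/db without overlap. In whole tissue, a change in the number of cells of a type and a change in RNA per cell cannot be told apart, and the part of segment composition in the results below was not tested. Adipocyte markers summed to 46.0 CPM in db/m replicate 3 and 48.5 CPM in db/db replicate 3 and to at most 3.12 CPM elsewhere, while the adrenal cortex enzymes Cyp11b1 and Cyp21a1 had no counts.

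Transcripts of the chain stood mostly above the median gene in db/db. Of 99 members tested, 25 rose, 2 fell and 72 gave no call. Over all genes tested, 13.1% rose and 10.8% fell. The log2 fold change was above 0 for 95 members, against 45.3% of all genes, and this count dropped to 60 when libraries were scaled by total counts only. The median log2 fold change was 0.28 over the nuclear members and 0.45 over the mitochondrially encoded members, against -0.06 over all genes. Relative to the median gene these are distances of 0.33 and 0.51, and with total counts only they were 0.33 and 0.52. The groups did not overlap, with db/db higher, for 64 members (22.4% of all genes), and with db/db lower for 2 (22.2% of all genes). The count of members that rose turned on single libraries: it was 43 with db/m replicate 1 omitted, 8 and 10 with the second and the third db/m library omitted, and 9, 10 and 7 with each db/db library omitted in turn. It was 1 with replicate 3 of both groups omitted, which are the libraries with adipocyte markers, 6 with total counts only and 52 with the DESeq2 Wald test. The share of all genes that rose was 12%, 8.36% and 11.7% in the db/m omissions and 8.7%, 8.67% and 8.15% in the db/db omissions. With 99 or 100 members tested per run, the share of members was near these values, except without db/m replicate 1. For the last 3 settings the share of all genes was 6.4%, 6.55% and 16.2%.

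These changes were small, and a shift upwards was shared by other abundant transcripts. Among 1652 other genes with a mean of at least 100 CPM, the median log2 fold change was 0.20, 72.1% were above 0 and 35.5% rose. Of 78 nuclear members at that level, 20 rose (25.6%), the median was 0.28 and 97.4% were above 0. The share of members that rose was thus below that of other abundant genes, a difference that was not tested. Most members encode short proteins, and the median transcript length of nuclear members in the annotation of GRCm38.p6 was 659 nt. The length of a gene was the median over all its annotated protein-coding transcripts, not that of the transcript expressed here. It can be far from the latter (Ndufs1 was given 651 nt and Ndufb2 2413 nt), so the comparisons by length are approximate. Other genes of at least 100 CPM and under 1200 nt had a median of 0.23 (39.1% rose), and without the ribosomal protein genes (Rpl and Rps symbols) it was 0.29 (43.1% rose), as high as that of the nuclear members. Members under 800 nt had a median of 0.29 (31.4% of 51 rose) and those of 800 nt or more 0.24 (3 of 30 rose). Across the 76 nuclear members with a length and at least 100 CPM, Spearman's rho of the log2 fold change with length was -0.33, and across other genes at that level it was -0.09. Genes share the 6 libraries and are not independent, so these are descriptions.

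**Figure D1:**
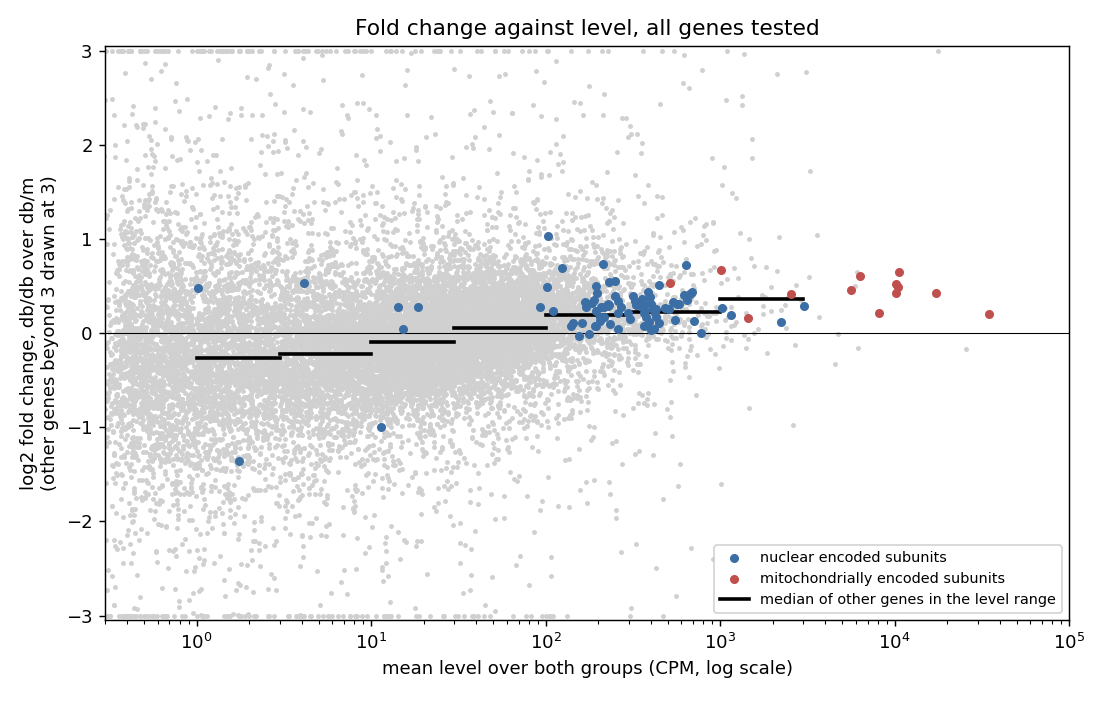
Each point is a gene, with mean level (CPM, log axis) against log2 fold change of db/db over db/m; grey points are other genes tested (drawn at 3 or -3 where beyond), blue and red points are nuclear and mitochondrially encoded members, and black bars are medians of the other genes by level. Members lie mostly between 0 and 0.7 at levels where other genes were also shifted above 0 (median 0.20 at 100 CPM or more), and the pair of members that fell lies below 100 CPM; with total counts only the median of all genes was -0.32.

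Summed over members, nuclear transcripts were 29319 ± 2416 CPM in db/m and 35237 ± 1700 CPM in db/db (SD, n = 3 each), a ratio of 1.20 with no overlap. The mitochondrially encoded transcripts summed to 102940 ± 16790 and 134830 ± 5040 CPM, a ratio of 1.31, also with no overlap. Both separations depend on the TMM factors. As a share of all counts, nuclear members took 3.37%, 3.23% and 3.02% in db/m and 3.14%, 3.35% and 3.17% in db/db, and mitochondrially encoded members 12.9%, 10.9% and 9.90% against 12.4%, 11.7% and 12.9%, so on that scale the groups overlapped. Within the db/m group, replicate 1 was the highest and replicate 3 the lowest in each of the 9 CPM sums by complex and genome. In db/db the highest library was replicate 2 for 5 of the 9 sums. The ratio of mitochondrial to nuclear member transcripts was 3.82, 3.38 and 3.28 in db/m replicates 1 to 3 and 3.94, 3.50 and 4.06 in db/db replicates 1 to 3, so the balance between the genomes overlapped.

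**Figure D2:**
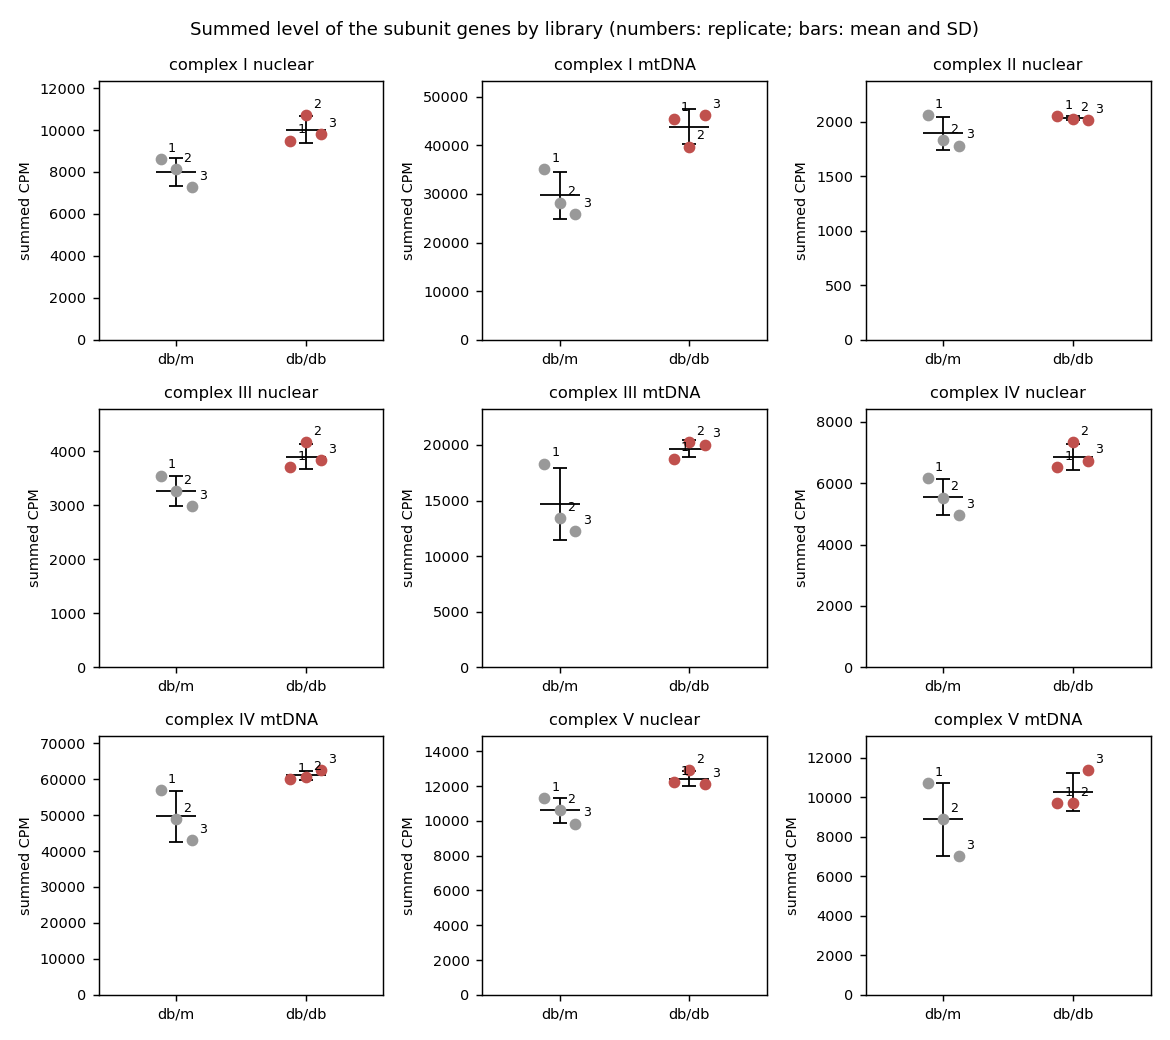
Summed CPM of the members of each complex in each library, nuclear and mitochondrially encoded (mtDNA) members apart; numbers name the replicate and bars give the mean and SD. The nuclear sums of complexes I, III, IV and V do not overlap between groups, whereas those of complex II and of the mitochondrially encoded complex V genes do; as shares of all counts the nuclear sums of complexes I, III, IV and V overlap and complex II separates, with db/db lower.

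Promoters are shown for 4 genes at the ends of the pattern: Ndufs5 and Ndufa4, the nuclear members with the smallest p among those that rose, Cox6b2, which fell, and Sdha, whose level was nearly equal in the groups. The letters are the 250 bases before the RefSeq start of each gene in GRCm38.p6, 5′ to 3′ on the gene's strand, which is the minus strand for all 4. The windows are chr4:123718187-123718436 for Ndufs5, chr6:11907451-11907700 for Ndufa4, chr7:4753095-4753344 for Cox6b2 and chr13:74350241-74350490 for Sdha. Capitals mark AAGGTCA, the core of the site bound by oestrogen-related receptors, which occurs in Ndufs5 on the other strand and so reads TGACCTT, starting 228 bases before the start.
Ndufs5: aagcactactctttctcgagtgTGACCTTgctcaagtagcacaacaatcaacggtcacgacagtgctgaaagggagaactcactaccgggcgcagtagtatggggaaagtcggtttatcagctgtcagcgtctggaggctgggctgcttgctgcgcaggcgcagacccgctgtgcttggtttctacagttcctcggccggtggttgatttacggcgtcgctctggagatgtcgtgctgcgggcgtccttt
Ndufa4: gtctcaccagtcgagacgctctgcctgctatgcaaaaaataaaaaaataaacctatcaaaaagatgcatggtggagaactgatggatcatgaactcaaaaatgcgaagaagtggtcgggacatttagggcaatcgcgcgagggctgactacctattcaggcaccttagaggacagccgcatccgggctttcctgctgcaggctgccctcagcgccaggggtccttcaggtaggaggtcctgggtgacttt
Cox6b2: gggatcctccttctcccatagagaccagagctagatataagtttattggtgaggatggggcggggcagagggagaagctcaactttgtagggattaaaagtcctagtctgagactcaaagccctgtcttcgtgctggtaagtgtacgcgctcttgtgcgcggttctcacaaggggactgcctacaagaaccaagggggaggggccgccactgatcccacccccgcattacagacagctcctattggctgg
Sdha: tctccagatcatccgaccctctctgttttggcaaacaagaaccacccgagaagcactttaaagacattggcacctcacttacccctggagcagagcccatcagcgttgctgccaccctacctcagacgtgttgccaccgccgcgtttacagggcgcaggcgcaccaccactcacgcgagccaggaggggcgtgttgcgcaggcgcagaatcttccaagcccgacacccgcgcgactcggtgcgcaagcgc
Ndufa4, Cox6b2 and Sdha held none of the 4 motifs searched.

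A RefSeq promoter of 300 bases (250 before and 50 after the start) was matched for 70 of 88 nuclear members. These were searched on both strands for 4 short motifs of factors linked in textbooks to respiratory genes. GCATGCG, a core of the NRF1 site, was in 11 of 70 (15.7%), against 3.58% of all 32851 promoters and 6.26% of 12787 tested genes. CCGGAAG, bound by GABPA and other ETS factors, was in 17 (24.3%, against 8.86% and 17.4%). AAGATGG, the YY1 core, was in 11 (15.7%, against 6.34% and 7.88%), and AAGGTCA was in 8 (11.4%, against 4.72% and 4.40%). Among the 20 nuclear members that rose, all with a promoter, 10 held at least 1 of the motifs, compared with 36 of all 70. A match is a description of letters and not of binding.

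In complex I, the largest of the 5, 15 of 48 members tested rose (31.2%), none fell and 33 gave no call. The share that rose was 13.1% over all genes, 35.5% over other genes of at least 100 CPM and 38.9% in complex IV. No complex I member had an unadjusted p under 0.05 in the lower direction, and DESeq2 and limma-voom called none lower. Total-count scaling put Ndufs4 among the calls that were lower. With db/m replicate 1 omitted 25 members rose, and with any other single library omitted 7 to 10 did. Of 41 nuclear members, 11 rose (median 0.28), and of the 7 ND genes of mitochondrial DNA, 4 rose (median 0.54). The nuclear core subunits, which bind NADH, flavin and the iron-sulfur clusters, had a median of 0.13 and 1 of 7 rose, whereas 10 of 34 accessory subunits rose, with a median of 0.28. The accessory sum divided by the nuclear core sum was 3.35, 3.33 and 3.21 in db/m and 3.56, 3.93 and 3.68 in db/db, so the accessory transcripts were the higher share in all 3 db/db libraries. The accessory count and sum include Ndufa4 (mean 485 CPM in db/m and 798 CPM in db/db), placed here by its symbol. The ratio was not computed without it.

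Ndufs5, an accessory subunit on the intermembrane side of the membrane arm, was 71.6, 71.8 and 59.8 CPM in db/m and 133, 147 and 135 CPM in db/db. All db/db libraries lay well above all db/m libraries, a 2.04-fold difference (log2 1.03, SE 0.10, adjusted p = 0.000917). As a percentage of all nuclear complex I counts it went from 0.832, 0.883 and 0.820 to 1.40, 1.37 and 1.38. It was the member that kept its call under each of the 16 alternatives run, among them the omission of replicate 3 from both groups, where no other member was called higher.

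Ndufa4 was named as a complex I subunit but is now described as part of complex IV, and it is counted here by its symbol. Its level was 535, 464 and 455 CPM in db/m and 740, 857 and 796 CPM in db/db. The groups were far apart (log2 fold change 0.72, SE 0.10, adjusted p = 0.00373). Set against the nuclear complex IV sum in the same library, Ndufa4 was 8.68%, 8.40% and 9.18% in db/m and 11.4%, 11.7% and 11.8% in db/db. Counting it and Ndufa4l2 with complex IV gave 14 members that rose in complex I and 8 in complex IV. Ndufa4l2, a related form known from low oxygen, was at 2.18 to 4.76 CPM in db/m and 3.76 to 5.53 CPM in db/db with overlap and no call.

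Ndufb3 and Ndufa1, small subunits of the membrane arm, followed. Ndufb3 was 109, 88.7 and 87.3 CPM in db/m and 145, 163 and 154 CPM in db/db (log2 fold change 0.70, SE 0.11, adjusted p = 0.00532). Ndufa1, an X-linked gene, was 188, 157 and 139 CPM and 236, 301 and 265 CPM (0.73, SE 0.14, adjusted p = 0.0105). In both genes the lowest db/db library was above the highest db/m library. Ndufv3, of the NADH-binding module, was 192, 196 and 173 CPM in db/m and 259, 306 and 252 CPM in db/db (0.54, adjusted p = 0.0112), and Ndufs6, a zinc-binding subunit needed late in assembly, was 165, 169 and 152 CPM and 209, 263 and 216 CPM (0.50, adjusted p = 0.0166). These 4 genes, together with Ndufs5, Ndufa4 and ND3, were the 7 of the 25 that stayed called whichever of the 6 libraries was left out.

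The other nuclear complex I members that rose had log2 fold changes of 0.31 (Ndufv1, the flavin-binding core subunit) to 0.55 (Ndufa6), with Ndufc2 at 0.32, Ndufb10 at 0.39 and Ndufb2 at 0.49 between them. Ndufb2 and Ndufs6 overlap Braf and Mrpl36 on the opposite strand in the annotation of GRCm38.p6. Ndufb2 also overlaps Gm42420, a protein-coding gene, on the same strand. The sources used here do not say whether the counting used strand. At the other end, Ndufs4, a subunit of the peripheral arm whose loss causes Leigh syndrome, was 170, 163 and 138 CPM in db/m and 151, 161 and 152 CPM in db/db. The db/db values lay inside the db/m range (log2 fold change -0.03, SE 0.10, adjusted p = 0.866). Ndufa5, of the same arm, also overlapped (-0.01, adjusted p = 0.953). The 24 accessory subunits without a call ran up to 0.53 (Ndufa4l2), and the highest of them above 100 CPM was Ndufb4 (0.43, adjusted p = 0.0534). The core subunits Ndufv2 (0.04), Ndufs7 (0.08), Ndufs3 (0.10), Ndufs8 (0.13) and Ndufs1 (0.17) overlapped between groups with no call. Ndufb4b and Ndufb4c resemble Ndufb4 closely, so the split of reads among these 3 (log2 fold changes 0.28, 0.28 and 0.43, no call) is uncertain. Ndufs6b, a copy of Ndufs6, had at most 10 counts in a library.

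**Figure D3:**
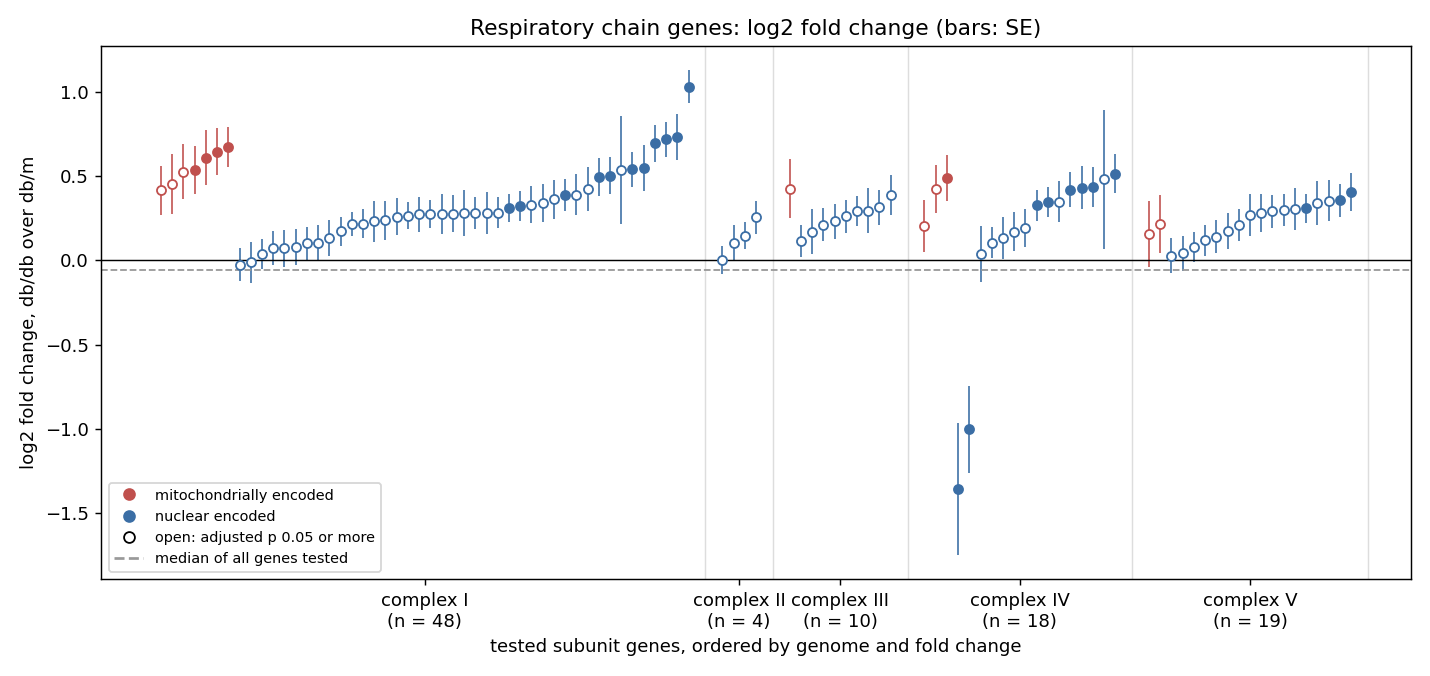
Log2 fold change of db/db over db/m (edgeR, TMM scaling) for each member tested, by complex, with mitochondrially encoded members in red, nuclear members in blue, filled points for calls, bars for the SE and a dashed line at the median of all genes. Members that rose are in complexes I, IV and V, the pair that fell is in complex IV, and complex II members lie between 0.00 and 0.26; with total counts only, the complex II median fell below 0.

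None of the 4 complex II members was called in either direction by edgeR with TMM scaling and all libraries. Sdhc was the only one with an unadjusted p under 0.05, and the DESeq2 Wald test called 1 of the 4, Sdhc, as did edgeR without db/m replicate 1. Sdha, the flavoprotein that oxidises succinate and thereby links the chain with the citric acid cycle, was 827, 752 and 758 CPM in db/m and 801, 776 and 761 CPM in db/db. The db/db values lay within the db/m range (log2 fold change 0.00, SE 0.08, adjusted p = 0.995). Scaled by total counts only, Sdha was called lower. Sdhb, the iron-sulfur subunit, overlapped as well (490, 428 and 380 CPM against 456, 470 and 470 CPM, log2 fold change 0.10). The membrane anchors Sdhc (437, 373 and 360 CPM against 474, 466 and 457 CPM) and Sdhd (308, 277 and 282 CPM against 319, 315 and 326 CPM) did not overlap. Their log2 fold changes were 0.26 (adjusted p = 0.096) and 0.15 (adjusted p = 0.212).

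As a share of all counts, complex II took 0.219%, 0.201% and 0.200% in db/m and 0.189%, 0.183% and 0.185% in db/db, so on that scale db/db was lower without overlap, while its CPM sums overlapped. Within a library, the other complexes were higher relative to complex II in db/db. The nuclear complex I sum was 4.17, 4.44 and 4.10 times the complex II sum in db/m and 4.63, 5.29 and 4.87 times in db/db. For complex IV the ratios were 2.99, 3.02 and 2.79 against 3.18, 3.61 and 3.35. The ratios of complex III (1.68 to 1.78 against 1.81 to 2.06) and complex V (5.49 to 5.81 against 5.98 to 6.38) did not overlap either. These ratios are sums of CPM and are led by the abundant members.

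No complex III member was called by edgeR with TMM scaling and all libraries. At an unadjusted p under 0.05, 5 of 10 were higher and none was lower, against 3177 higher and 3191 lower of all 16373 genes. The DESeq2 Wald test called 5 higher, limma-voom 1, edgeR with DESeq2 size factors 2 and edgeR without db/m replicate 1 called 4. The shares of all genes called higher in these runs were, in that order, 16.2%, 13.5%, 13.9% and 12%. The median over 9 nuclear members was 0.26, and 6 of them did not overlap, with db/db higher, as was so for 22.4% of all genes. Uqcrq, a small subunit near the cytochrome b core, had the highest value (361, 354 and 311 CPM in db/m against 396, 515 and 433 CPM in db/db, log2 fold change 0.39, SE 0.12, adjusted p = 0.0534). Uqcrfs1, the Rieske iron-sulfur protein, was at 0.29 (adjusted p = 0.0535). Cyc1, cytochrome c1, was 520, 450 and 426 CPM in db/m and 556, 577 and 539 CPM in db/db, which did not overlap (0.26, adjusted p = 0.0979). The lowest was Uqcrc2, a core protein of the matrix side, at 404, 369 and 358 CPM against 421, 373 and 430 CPM, with overlap (0.11, adjusted p = 0.401). The other nuclear members ran from 0.17 (Uqcr10) to 0.31 (Uqcrc1, adjusted p = 0.0689). The difference from the calls in complex I was not tested.

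Complex IV held members that rose and members that fell. Of 18 tested, 7 rose (38.9%), 2 fell (11.1%) and 9 gave no call. Over all genes 13.1% rose and 10.8% fell, and 35.5% of other genes of at least 100 CPM rose. The nuclear members that rose were Cox7c (0.51), Cox7a2 (0.44), Cox6a1 (0.43), Cox8a (0.42), Cox5a (0.34) and Cox6b1 (0.33), all subunits of the broadly expressed form of the enzyme. Cox7c was 423, 362 and 318 CPM in db/m and 508, 530 and 536 CPM in db/db (SE 0.12, adjusted p = 0.0193). Cox8a was 614, 588 and 512 CPM and 719, 820 and 755 CPM (SE 0.10, adjusted p = 0.0262). Neither gene overlapped between groups. All 7 calls were lost when db/m replicate 2 or any single db/db library was left out, and 1 was kept without db/m replicate 3. Cox4i1, a regulatory subunit, overlapped (1003 to 1207 CPM in db/m, 1171 to 1355 CPM in db/db, 0.19, no call), as did Cox6c (0.13) and Cox7a2l (0.11). Cox5b (0.35, adjusted p = 0.0773) and Cox7b (0.17, adjusted p = 0.305) did not overlap and gave no call.

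The pair that fell consists of tissue forms. Cox6b2, known as the testis form of Cox6b1, was 18.0, 14.7 and 13.1 CPM in db/m and 6.06, 10.8 and 6.02 CPM in db/db. No db/db library reached the lowest db/m library (log2 fold change -1.001, SE 0.26, adjusted p = 0.0304). As a percentage of the pair with Cox6b1 it was 3.47, 2.88 and 2.89 in db/m and 1.07, 1.67 and 0.991 in db/db. Cox6a2, the heart and muscle form of Cox6a1, was 2.14, 1.72 and 3.73 CPM in db/m and 0.922, 0.713 and 1.31 CPM in db/db. That is 59 to 116 counts against 18 to 36 counts, without overlap (log2 fold change -1.36, SE 0.39, adjusted p = 0.0432). Cox6a2 overlaps Itgad on the opposite strand in that annotation. Both calls were lost easily when a library was left out. Cox6b2 was called in 2 of the 6 such runs (those omitting replicate 3 of db/m or replicate 2 of db/db), and Cox6a2 in 1 of the 6 (that omitting replicate 2 of db/m).

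The other tissue forms gave no call. Cox7a1, the heart and muscle form of Cox7a2, was 11.9 to 17.2 CPM in db/m and 14.1 to 17.5 CPM in db/db, and Cox4i2, known from lung, was 0.654 to 1.19 CPM and 0.713 to 1.64 CPM. Cox8b, the heart, muscle and brown fat form of Cox8a, had 3, 6 and 28 counts in db/m and 0, 0 and 412 counts in db/db. Its only appreciable level, 15.0 CPM, was in db/db replicate 3, where the brown adipocyte genes Ucp1 and Cidea stood at 41.2 and 27.6 CPM against at most 0.901 CPM in every other library. The symbols Cox7b2 and Cox8c were absent from the deposited count table.

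**Figure D4:**
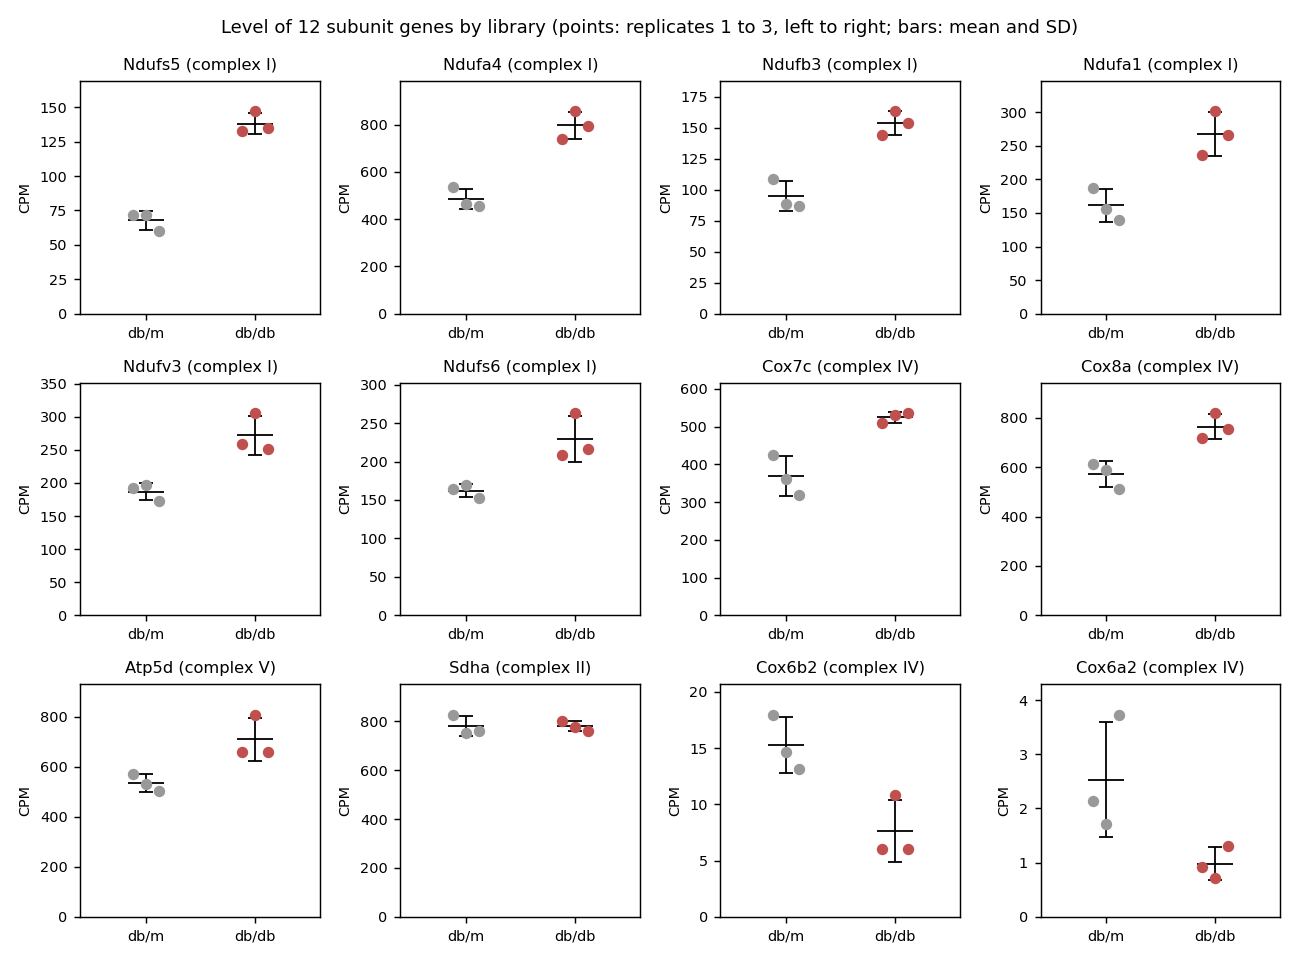
CPM of 12 members in each of the 6 libraries, 1 panel per gene with its own axis, db/m in grey and db/db in red, with bars for the mean and SD. Ndufs5 and Ndufa4 separate with db/db higher, Cox6b2 separates with db/db lower, and the Sdha values of the groups overlap.

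In complex V, 3 of 19 members rose and none fell, a share of 15.8% that is near the 13.1% of all genes and below the 35.5% of other abundant genes. None had an unadjusted p under 0.05 in the lower direction, and no other tool called one lower. Those that rose were Atp5d (the delta subunit of the F1 head), Atp5j2 (of the membrane sector) and Atp5pb (of the peripheral stalk), with log2 fold changes of 0.41, 0.36 and 0.31. Atp5d was 572, 530 and 503 CPM in db/m and 659, 809 and 661 CPM in db/db (SE 0.11, adjusted p = 0.0369). Atp5pb was 548, 496 and 483 CPM and 620, 634 and 637 CPM (SE 0.09, adjusted p = 0.0377). The groups did not overlap for either. No complex V member was called with any single library other than db/m replicate 1 omitted, and 4 were with that one omitted. Atp5d and Atp5pb (listed there as Atp5f1) overlap Cbarp and Wdr77 on the opposite strand in that annotation.

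Other subunits of the head and the c-ring gave no call by edgeR with TMM scaling and all libraries. Without db/m replicate 1, edgeR called Atp5b and Atp5g3 higher, and the DESeq2 Wald test called Atp5e, of the head, higher. Atp5b, the catalytic beta subunit, was 2895, 2654 and 2590 CPM in db/m and 3401, 3303 and 3252 CPM in db/db, with no overlap (0.29, SE 0.10, adjusted p = 0.0665); limma-voom and the DESeq2 Wald test called it higher. Atp5a1, the alpha subunit, overlapped (0.12, adjusted p = 0.367). The genes Atp5g1, Atp5g2 and Atp5g3 encode the same c-ring protein, and they were at 0.08, 0.17 and 0.27, and of these Atp5g3 did not overlap. Atp5h, of the stalk, had the lowest value (425, 421 and 345 CPM against 390, 423 and 401 CPM, 0.03, SE 0.10, adjusted p = 0.862), and Atp5o, which joins the stalk to the head, was at 0.04 with overlap. The other members without a call lay between these and Atp5k, a small membrane subunit, at 0.35 (adjusted p = 0.0732).

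Of the 13 genes of mitochondrial DNA, 5 rose (38.5%), none fell and 8 gave no call. Over all genes 13.1% rose, and 37.2% of other genes with a mean of at least 300 CPM did. None of the 13 had an unadjusted p under 0.05 in the lower direction, and neither DESeq2 nor limma-voom called one lower. With db/m replicate 1 omitted 10 rose, and with any other single library omitted 1 to 4 did. The log2 fold changes were 0.16 to 0.67, and with total counts only COX1, ATP6 and ATP8 were below 0. ND3 was 834, 826 and 689 CPM in db/m and 1120, 1269 and 1351 CPM in db/db (0.67, SE 0.12, adjusted p = 0.00785). ND1 was 9395, 7963 and 7478 CPM and 13511, 11728 and 13596 CPM (0.65, SE 0.14, adjusted p = 0.0161). Both encode membrane subunits next to the ubiquinone channel of complex I, and in both all db/db libraries were above all db/m libraries.

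ND2 (4254 to 5910 CPM against 6532 to 8213 CPM, 0.61, adjusted p = 0.0339), ND4L (402 to 456 CPM against 496 to 721 CPM, 0.54, adjusted p = 0.034) and COX2 (7565 to 9913 CPM against 11540 to 12565 CPM, 0.49, adjusted p = 0.0401) also rose. ND4 (0.53), COX3 (0.42), CYTB (0.42) and ND6 (0.42) did not overlap but gave no call, with adjusted p of 0.0534, 0.0688, 0.119 and 0.0755. ND5 (0.45), ATP6 (0.22), COX1 (0.21) and ATP8 (0.16) overlapped. COX1, the catalytic subunit of complex IV, was 37379, 31091 and 28178 CPM in db/m and 37378, 35892 and 38215 CPM in db/db, where db/m replicate 1 was as high as the db/db libraries.

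Ratios between mitochondrially encoded genes of a library do not depend on the scaling. The 7 ND genes together, ND6 of the opposite strand among them, were 0.941, 0.907 and 0.919 of COX1 in db/m and 1.22, 1.11 and 1.21 in db/db. Against ATP6 and ATP8 together they were 3.28, 3.17 and 3.70 times in db/m and 4.70, 4.09 and 4.07 times in db/db. Neither ratio overlapped between groups, so the ND transcripts were higher relative to COX1, and to ATP6 with ATP8, in each db/db library. These 3 denominators had the lowest log2 fold changes of the mitochondrially encoded genes (0.21, 0.22 and 0.16), so the separation adds little to those values. COX2 (0.49), COX3 (0.42) and CYTB (0.42) lay within the range of the ND genes (0.42 to 0.67). Ratios of the ND genes to these were not computed, so a shift against all other mitochondrially encoded genes was not shown. The ratio of ND4 to ND4L (17.0 to 22.3 against 17.4 to 23.4) and that of ATP6 to ATP8 (5.27 to 6.07 against 5.24 to 6.81), each within a shared transcript, overlapped.

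Per kilobase of gene, COX1 had the highest level in both groups (20850 ± 3044 CPM per kb in db/m and 24050 ± 762 in db/db, SD, n = 3 each) and ND4L the lowest (1426 ± 97.3 and 2070 ± 382). COX2, CYTB, COX3 and ATP6 stood between 11040 and 12810 CPM per kb in db/m, within their spread of one another. ND1 (8650 ± 1041), ATP8 (6661 ± 1483), ND4 (6032 ± 1209) and ND2 (4816 ± 810) came next by mean level. These SDs are spreads between libraries, and the order of genes within a library was not tested. ND6, on the opposite strand from the other 12 and overlapping ND5, was at 4218 ± 752, and ND5 (2617 ± 481) and ND3 (2250 ± 234) did not differ beyond their spread. ND4L and ND4 lie on a shared transcript, as do ATP8 and ATP6, yet their levels per kilobase were unlike. In db/m they were 1426 against 6032 and 6661 against 11040 CPM per kb. For short, overlapping genes such as ND4L the level per kilobase can depend on how reads were assigned, which was not tested. Its rank is therefore not a measure of how scarce the transcript is. Libraries were made on oligo(dT) beads, so a level also depends on the poly(A) tails of a transcript, and copies of mitochondrial DNA in the nuclear genome can share reads with it.

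Other genes of the pathway were read from lists. Of 46 assembly factors tested, 21 rose (45.7%, against 13.1% of all genes) and 1 fell, with a median of 0.29. Acad9, which helps to assemble complex I and is also an acyl-CoA dehydrogenase, was 48.9, 54.9 and 54.2 CPM in db/m and 101, 92.3 and 101 CPM in db/db (0.90, SE 0.08, adjusted p = 0.000839). Cox20, a chaperone of COX2, rose from 10.3 to 11.1 CPM to 17.5 to 21.3 CPM (0.86). Lyrm7, which guides the Rieske protein into complex III, was the one that fell (13.6, 14.5 and 8.82 CPM against 4.25, 4.08 and 3.39 CPM, -1.66, SE 0.23, adjusted p = 0.00313), while its client Uqcrfs1 was at 0.29 with no call.

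Among electron carriers and the enzymes that feed ubiquinone, 8 of 19 rose (42.1%, against 13.1% of all genes) and none fell. Here 2 were lower at an unadjusted p under 0.05. Cycs, cytochrome c, was 239, 257 and 243 CPM in db/m and 406, 452 and 476 CPM in db/db (0.85, SE 0.09), and Pdss1, which makes the ubiquinone side chain, was 11.5 to 14.6 CPM and 23.6 to 26.6 CPM (0.96, SE 0.12). Neither gene overlapped between groups, and both had larger log2 fold changes than every subunit except Ndufs5. In the citric acid cycle 2 of 14 rose (14.3%), Idh3g (0.31) and Dlst (0.27), and none fell, with none lower at an unadjusted p under 0.05. This share is near the 13.1% of all genes and below the 35.5% of other genes of at least 100 CPM, the level of all 14. Of 11 exchangers, porins and uncoupling proteins 3 rose (27.3%, against 13.1% of all genes) and none fell, though 2 were lower at an unadjusted p under 0.05. The carrier and exchanger lists mix genes above and below 100 CPM, so neither the 13.1% nor the 35.5% matches their levels. Those that rose were Ucp2, an inner membrane carrier (91.0, 126 and 134 CPM against 208, 203 and 258 CPM, 0.93), Vdac1 (0.33) and Vdac3 (0.30).

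Genes that maintain and read mitochondrial DNA were nearer the median gene. Of 18 tested, 1 rose (5.56%, against 13.1% of all genes) and none fell, though 2 were lower at an unadjusted p under 0.05. Fastkd2, an RNA-binding protein of the mitochondrial matrix, was the gene that rose (0.73), and the median over the 18 was 0.07. Tfam, which packages the DNA, was 45.7 to 54.9 CPM in db/m and 52.3 to 56.4 CPM in db/db with no call. Of 11 regulators of mitochondrial biogenesis, 3 fell (27.3%, against 10.8% of all genes) and none rose, with none higher at an unadjusted p under 0.05. Ppargc1a, the coactivator PGC-1 alpha, was 48.6, 62.5 and 45.6 CPM in db/m and 31.3, 28.3 and 32.4 CPM in db/db (-0.77, SE 0.13, adjusted p = 0.00766). Ppargc1b (-0.80, SE 0.17) and Esrrb (-0.62, SE 0.16), an oestrogen-related receptor, fell too, and none of these 3 overlapped between groups. Nrf1, Gabpa and Esrra gave no call (-0.23, -0.03 and 0.10).

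**Figure D5:**
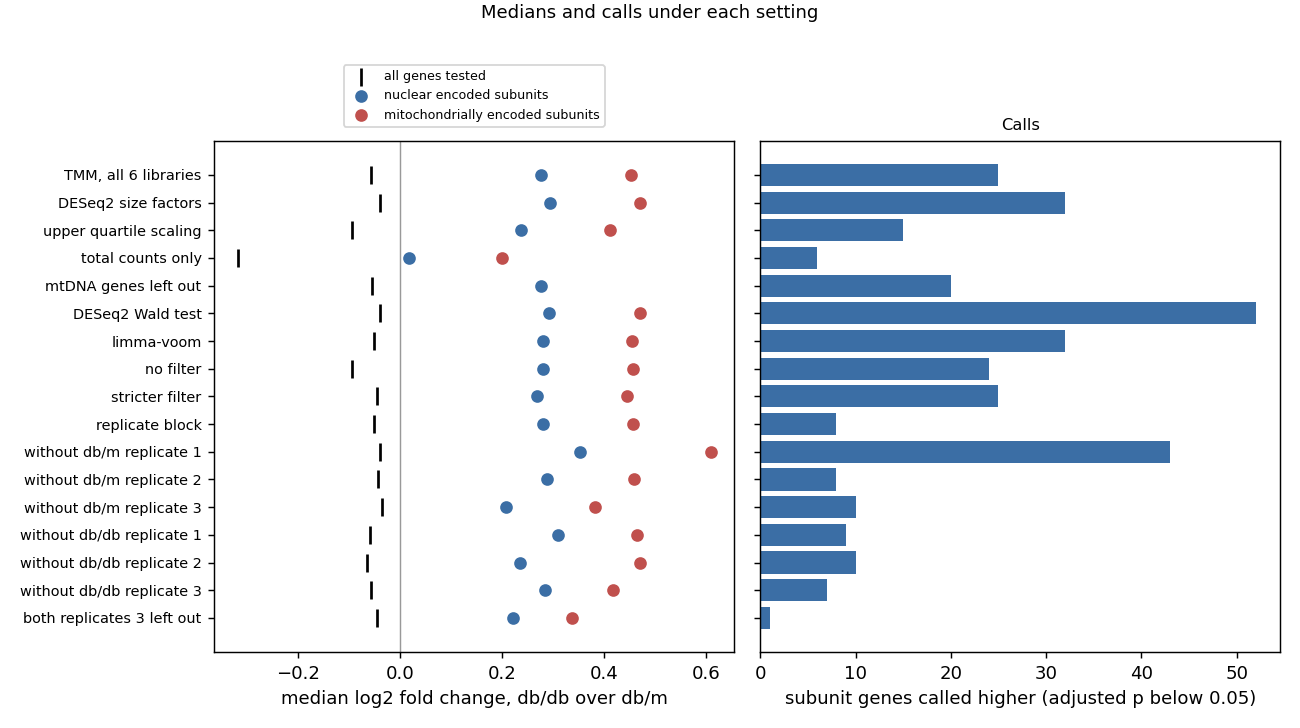
Median log2 fold change of all genes (black), nuclear members (blue) and mitochondrially encoded members (red) on the left, and number of members called higher on the right, under each processing setting. The count runs from 1 (replicate 3 of both groups left out) to 52 (DESeq2 Wald test), while the distance of the nuclear median from the median gene stays between 0.245 and 0.391.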

How the data were processed

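The authors deposited raw counts, whole numbers by gene symbol, in 1 table of 6 libraries. Per the labels' protocols, polyadenylated RNA was enriched on oligo(dT) beads before strand-specific library construction. The authors' tools were fastp, FastQC, HISAT2, SAMtools, StringTie and DESeq2, per the submitters' processing notes. The sources used here name no genome build, annotation or way of counting. A value of 2 was found 4164 times and a value of 1 only 1318 times, so a fragment may often have added 2 counts. Libraries were grouped by title. Chi-square per degree of freedom between replicates was 15.9 to 59.5, far above sampling noise, so none was merged.

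Genes passing filterByExpr were compared with the edgeR 4.0.16 quasi-likelihood test (R 4.3.3, TMM, no covariates, Benjamini-Hochberg over 16373 genes), after the procedure was tested on simulated data. The SE is the log2 fold change divided by the square root of F. Members, gene lists and motifs were chosen with earlier results of these data known, so none is independent evidence. Named genes were all mitochondrially encoded members, up to 12 called nuclear members per direction by smallest p, the highest and lowest of each complex, Sdha to Sdhd, Cyc1, and up to 2 called genes per list plus 1 in the other direction. Tissue forms and markers are given as levels. Members named beyond this rule, and Vdac1, Esrrb, Tfam, Nrf1, Gabpa and Esrra, were named after their values were seen. The values of 1 member are not reported here. Alternatives were 3 other scalings, mitochondrial genes left out, the DESeq2 1.42.0 Wald test, limma-voom (limma 3.58.1), no filter, a stricter filter (at least 1 CPM and 10 counts in 3 libraries), a replicate block, each library left out, and replicate 3 of both groups left out.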

Additional observations from a re-analysis of the deposited data

How the results depend on the processing

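Of the 16 alternatives, upper quartile scaling gave 15 members called higher (11 nuclear). Total counts only gave 6 higher (4 nuclear, 2 mitochondrial) and 4 lower (Cox6a2, Cox6b2, Sdha, Ndufs4), with 1073 genes higher and 4876 lower overall. The DESeq2 Wald test gave 52 higher (42 nuclear, 10 mitochondrial), and limma-voom gave 1 lower. Leaving out replicate 3 of both groups gave 1 higher (1 nuclear, 0 mitochondrial) and 0 lower, with 1052 and 660 genes overall. With the replicate block, 8 members were higher (7 nuclear, 1 mitochondrial), with 1313 and 973 genes overall; same-numbered libraries had correlations of -0.15, 0.06 and 0.14, so the numbers were not shown to pair the libraries. Leaving out 1 library gave 7 to 43 members higher (6 to 33 nuclear, 1 to 10 mitochondrial) and 0 to 1 lower, with 1374 to 2011 genes higher and 851 to 1523 lower overall. The 43 came without db/m replicate 1 and the 7 without db/db replicate 3; runs with fewer libraries also have fewer degrees of freedom, and otherwise the cause was not tested. With total counts only, log2 fold changes turned to -0.050 (COX1), -0.037 (ATP6), -0.098 (ATP8), -0.002 (Sdhc), -0.258 (Sdha, adjusted p = 0.0355), -0.144 (Uqcrc2), -0.230 (Atp5h), -0.153 (Sdhb) and -0.113 (Sdhd), by construction of the scaling. Upper quartile scaling turned Sdha to -0.039 and Atp5h to -0.011, the stricter filter turned Sdha to -0.007, and omission of replicate 3 from both groups turned ATP8 to -0.121 and Atp5h to -0.054. With 1 library left out the values ran from -0.102 to 0.048 (Ndufs4), from -0.020 to 0.060 (Sdha) and from -0.055 to 0.094 (Atp5h). Of 691 repeats of 44 named members, 484 kept direction and side of the threshold, 166 lost the call, 20 gained one and 21 changed sign. The 484 include repeats in which a member without a call stayed without one. All 166 losses fell on the members called in the main fit (25 higher and 2 lower), so the pooled count makes calls look steadier than they were. Medians relative to the median gene were 0.245 to 0.391 (nuclear) and 0.381 to 0.649 (mitochondrial). A library of this depth sets a floor of 0.0759 to 0.12 CPM (3 counts), so Ndufs6b is near the limit of detection; for the abundant members the number of libraries, not depth, limits the precision.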
